A study of Mus musculus with 21 samples.

Results

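Calcineurin is a phosphatase that is switched on by calcium and calmodulin, and the NFAT proteins are the transcription factors it is best known for controlling. The genes of this system described here are 10 of the 25239 gene symbols in each deposited table. They are the NFAT genes Nfatc1, Nfatc2, Nfatc3, Nfatc4 and Nfat5, the calcineurin subunit genes Ppp3ca, Ppp3cb and Ppp3r1, and the calcineurin regulator genes Rcan1 and Rcan2. They were taken by symbol, as a family chosen by the scaled read values of Nfatc2, which were lower in choroid plexus that overexpressed Ins2. That comparison is therefore given as a description of values, and calls in it are counted only as background, from which nothing is read. Tests of the family concern the hypothalamus.

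The study sequenced poly(A) RNA of 21 bulk samples from wild-type C57BL/6J mice. Choroid plexus, which lines parts of the ventricles and makes cerebrospinal fluid, gave 6 samples that overexpressed Ins2, an insulin gene, and 5 control samples listed as untreated. Hypothalamus gave 5 samples from mice with Ins2 overexpression in the choroid plexus and 5 control samples listed as untreated, whose column names carry a GFP prefix. The labels do not give the way in which Ins2 was introduced, the age of the mice, or whether each replicate is its own animal, and p-values here reflect no more than the scatter among the samples.

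In resting cells cytoplasmic NFATc proteins are phosphorylated and kept out of the nucleus. When calcium rises, calcineurin, a dimer of a catalytic A subunit (Ppp3ca, Ppp3cb or Ppp3cc) and a regulatory B subunit (Ppp3r1, or Ppp3r2 in testis), removes the phosphates and NFATc1 to NFATc4 enter the nucleus and bind DNA at a GGAAA core. Nfat5 is the divergent family member: it lacks calcineurin control of this kind and responds to high tonicity. RCAN proteins bind calcineurin and can restrain it, and the Rcan1 transcript from its downstream start site is itself a known NFAT target, which closes a feedback loop.

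The promoter windows of Nfatc2, the gene that led to this family, and of Rcan1, its feedback target, are shown. Each gene has 2 RefSeq windows at hand, whose start sites the gene-level values cannot tell apart. Any other annotated start is not shown. Each window holds 250 bases before and 50 bases after a RefSeq start site (GRCm38.p6, minus strand of each gene), written 5′ to 3′ with the NFAT core GGAAA, or TTTCC where it lies on the other strand, in capitals. RefSeq windows were at hand for 8 of the 10 genes, 13 windows in all.
Nfatc2 upstream start, chr2:168601608-168601907: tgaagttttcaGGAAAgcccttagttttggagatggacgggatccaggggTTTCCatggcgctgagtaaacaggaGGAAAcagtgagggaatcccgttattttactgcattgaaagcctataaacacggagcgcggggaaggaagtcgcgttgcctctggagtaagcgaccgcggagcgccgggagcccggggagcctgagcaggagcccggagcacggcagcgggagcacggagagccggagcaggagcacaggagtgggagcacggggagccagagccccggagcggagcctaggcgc
Nfatc2 downstream start, chr2:168590316-168590615: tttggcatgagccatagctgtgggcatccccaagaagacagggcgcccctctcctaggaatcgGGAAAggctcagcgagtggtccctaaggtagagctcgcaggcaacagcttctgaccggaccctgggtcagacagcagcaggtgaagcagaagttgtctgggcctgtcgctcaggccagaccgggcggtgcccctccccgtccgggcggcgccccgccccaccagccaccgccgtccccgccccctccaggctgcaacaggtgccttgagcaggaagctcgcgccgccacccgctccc
Rcan1 upstream start, chr16:92466120-92466419: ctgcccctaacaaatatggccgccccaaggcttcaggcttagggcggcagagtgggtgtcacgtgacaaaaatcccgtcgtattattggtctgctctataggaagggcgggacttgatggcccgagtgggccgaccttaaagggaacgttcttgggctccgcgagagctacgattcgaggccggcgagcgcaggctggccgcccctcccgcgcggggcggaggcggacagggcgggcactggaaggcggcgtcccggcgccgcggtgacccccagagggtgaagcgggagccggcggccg
Rcan1 downstream start, chr16:92400029-92400328: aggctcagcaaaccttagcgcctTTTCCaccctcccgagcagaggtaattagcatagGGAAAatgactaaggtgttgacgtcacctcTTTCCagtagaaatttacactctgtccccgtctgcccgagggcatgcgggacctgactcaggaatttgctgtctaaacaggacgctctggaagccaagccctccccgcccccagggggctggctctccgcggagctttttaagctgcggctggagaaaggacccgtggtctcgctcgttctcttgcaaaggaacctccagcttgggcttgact
The upstream Nfatc2 window held 3 matches and its downstream window 1. The downstream Rcan1 window held 3 matches and its upstream window 0. A short motif of this kind is common: of 32851 windows of the same length, 61.34% held at least 1 match on either strand and 9.415% held at least 3. A match is a string of letters and not a measured binding site, and 0 matches says only that these letters are not in that window.

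The 11 choroid plexus libraries held 25950069 to 36289667 reads in genes and the 10 hypothalamus libraries held 27368464 to 62062133. Values are gene counts divided by each library's size factor (scaled reads), and each tissue was scaled on its own. Ins2 itself was at 598 to 1041 scaled reads in Ins2 choroid plexus, against 387 to 501 in control choroid plexus. In hypothalamus it was at 5.75 in Ins2 replicate 4 and listed at 0 in the other libraries of both groups. The tissues carried their labels: the 10 epithelial markers, among them Ttr and Kl, summed to 4742850 to 5457550 scaled reads in Ins2 choroid plexus and 4987540 to 5464930 in controls, and 10 neuron markers to 162296 to 169070 in Ins2 hypothalamus and 158137 to 166510 in its controls. Control 2 of choroid plexus stood apart. Its 10 oligodendrocyte markers summed to 55432, against 2648 to 6080 in Ins2 libraries and 2733 to 3344 in the other controls. Its 10 astrocyte markers summed to 12876, against 4569 to 5771 in Ins2 libraries and 4815 to 6900 in the other controls. The Rcan2 values, which rest on that library, are given with and without it.

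Nfatc2 (chromosome 2, 168476410 to 168601657, minus strand) encodes NFATc2, also called NFAT1, a family member known from T cells. Its 6 Ins2 choroid plexus libraries had a lowest value of 1595, a median of 1802 and a highest of 1938 scaled reads, against 2382, 2243, 2540, 2200 and 2024 in controls 1 to 5. Every Ins2 library lay below every control library, and the gap between the nearest libraries was small beside the spread within each group. The means were 1782 ± 149 in Ins2 (SD, n = 6) and 2278 ± 195 in control choroid plexus (n = 5). The fold was 0.782, with a 95% interval of 0.707 to 0.865. This difference chose the family and supports nothing further. It did not rest on control 2 (log2 fold change -0.36 without it, -0.35 with all libraries). In bulk tissue, fewer cells that express a gene and less RNA per cell cannot be told apart. NFATc2 is best known from lymphocytes. The T and NK cell markers, with 9 of 10 in the table and 4 at a mean of at least 10, summed to 61.5 to 241 scaled reads in Ins2 and 36.7 to 112 in control choroid plexus, with 3 of the 6 Ins2 libraries above every control. In control hypothalamus the same list summed to 17180 to 19156, with 2 genes at a mean of at least 10, so the sum is no count of these cells. Endothelial markers summed to 2297 to 6069 in Ins2 and 3269 to 5223 in controls, and fibroblast markers to 4605 to 7862 in Ins2 and 5492 to 8063 in controls. The part of these cells in the Nfatc2 values was not tested.

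**Figure D1:**
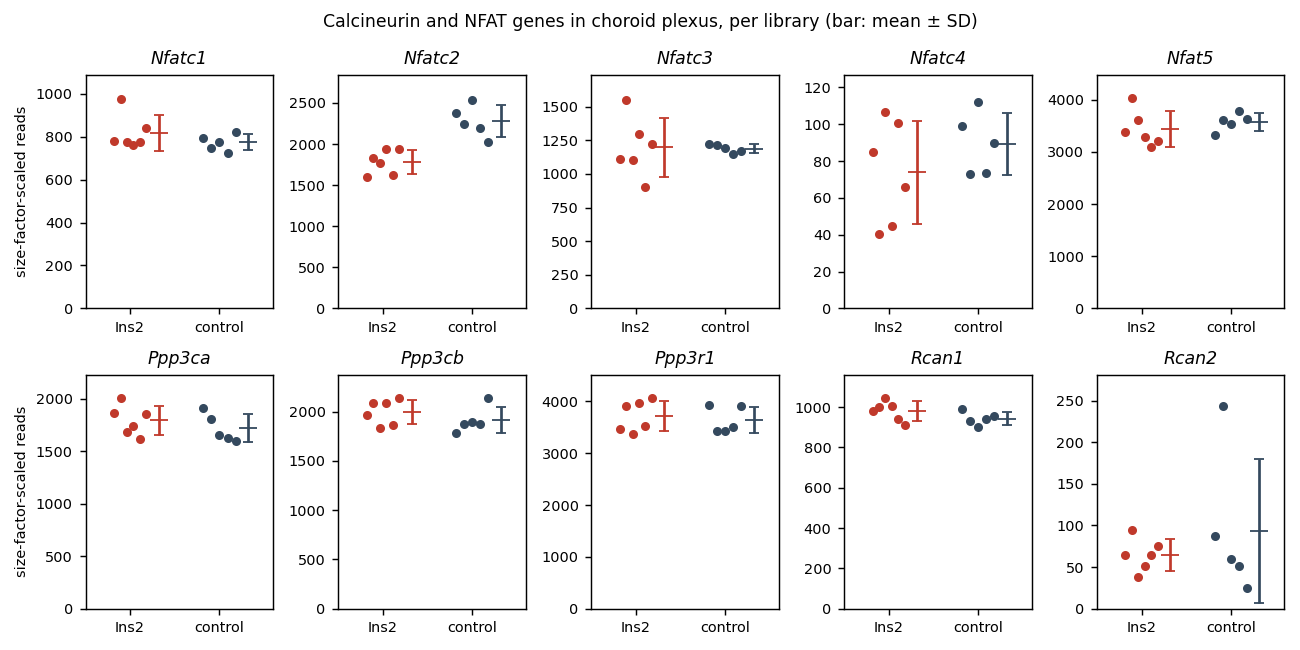
Size-factor-scaled reads of the 10 genes in each choroid plexus library (points; vertical axis from 0; Ins2, n = 6, left of control, n = 5), with the mean ± SD beside the points. Nfatc2 separates the groups, at 1595 to 1938 in Ins2 and 2024 to 2540 in controls, and Rcan2 control 2 stands alone at 244.

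The other NFAT genes of choroid plexus overlapped between the groups. Nfatc1 (chromosome 18, 80606205 to 80713071, minus strand), known from lymphocytes, bone-resorbing cells and heart valve endothelium, averaged 818 ± 82.8 scaled reads in Ins2 and 773 ± 37.2 in control choroid plexus, a fold of 1.06 (95% interval 0.945 to 1.18). Nfatc3 (chromosome 8, 106058840 to 106130537, plus strand), widely expressed, averaged 1198 ± 218 in Ins2 and 1189 ± 31.5 in controls, a fold of 0.995 (0.864 to 1.15). The spread of Nfatc3 differed more than its mean: the Ins2 libraries ran from 904 to 1548, and the controls from 1145 to 1222. Of its exon bases 1.87% overlap opposite-strand genes, Esrp2 among them, so a small part of its reads is uncertain. Nfatc4 (chromosome 14, 55823144 to 55833943, plus strand), a family member studied in neurons and muscle, was the lowest NFAT gene, with 40.5 to 106 in Ins2 and 73.2 to 112 in control libraries. Nfat5 (chromosome 8, 107293470 to 107379517, plus strand), the tonicity-responsive member, averaged 3435 ± 338 in Ins2 and 3578 ± 172 in controls, a fold of 0.957 (0.873 to 1.05).

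A single Ins2 library, replicate 2, was high for several of these genes. It held 977 scaled reads of Nfatc1, against 761 to 840 in the other Ins2 libraries, and had the highest Nfatc3, 1548, and Nfat5, 4025. It also had the lowest Nfatc4, 40.5. Across the 11 choroid plexus libraries, after each group's mean was subtracted, Nfatc3 and Nfatc4 ran opposite ways (Pearson r = -0.80), and Nfatc3 ran with Nfatc1 (0.68) and with Ppp3ca (0.69), where 1% of all genes exceeded 0.84 with Nfatc3. These are descriptions over libraries that share their preparation and scaling. This was the deepest choroid plexus library, at 36289667 reads, and the part of depth was not tested.

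The 3 calcineurin subunits among the 10 genes were nearly level in choroid plexus. The remaining catalytic subunit, Ppp3cc, had a higher mean in Ins2, with ranges that overlapped. Ppp3ca (chromosome 3, 136670124 to 136937727, plus strand), the alpha catalytic subunit that predominates in brain, averaged 1793 ± 141 scaled reads in Ins2 and 1719 ± 133 in control choroid plexus, a fold of 1.04 (95% interval 0.946 to 1.15). Ppp3cb (chromosome 14, 20499364 to 20546573, minus strand), the beta catalytic subunit, averaged 1997 ± 125 in Ins2 and 1915 ± 133 in controls, a fold of 1.04 (0.955 to 1.14). Ppp3r1 (chromosome 11, 17159263 to 17200375, plus strand), the calcium-binding B subunit, averaged 3719 ± 294 in Ins2 and 3641 ± 253 in controls, a fold of 1.02 (0.933 to 1.12). The groups of all 3 genes overlapped. Ppp3cc, the gamma catalytic subunit, averaged 505 ± 43.8 in Ins2 and 432 ± 32.7 in controls, with a fold of 1.17 and an interval of 1.03 to 1.33. All 6 Ins2 libraries lay above the control mean of Ppp3cc, and the ranges overlapped. In hypothalamus the fold of Ppp3cc was 0.923 (95% interval 0.789 to 1.08). The Ppp3r1 locus shares 14.31% of its exon bases with the neighbouring gene Wdr92 on the same strand, so its level is less certain than those of the catalytic subunits.

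Of the regulators, Rcan1 (chromosome 16, 92391953 to 92470867, minus strand) was among the steadiest genes of the family. It ran from 911 to 1047 scaled reads in Ins2 and from 901 to 990 in control choroid plexus, a fold of 1.04 (95% interval 0.95 to 1.14). The groups overlapped over nearly the whole range of the controls.

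Rcan2 (chromosome 17, 43801351 to 44039516, plus strand), a paralog expressed strongly in brain, was low in choroid plexus. Its values were 64.9, 94.2, 38.4, 51.2, 64.0 and 75.6 scaled reads in Ins2 libraries 1 to 6, against 87.5, 244, 59.7, 51.5 and 24.8 in controls 1 to 5. Control 2 lay far above every other library of either group. That is the library with raised glial markers. Its hypothalamus markers summed to 1172, against 541 to 688 in Ins2 libraries and 501 to 585 in the other controls. The log2 fold change of Rcan2 was -0.16 (95% interval -0.997 to 0.67) with all libraries, 0.28 without control 2 and -0.53 without control 5, so its direction in choroid plexus turned on 1 library. The part of the glial RNA in these values was not tested.

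**Figure D2:**
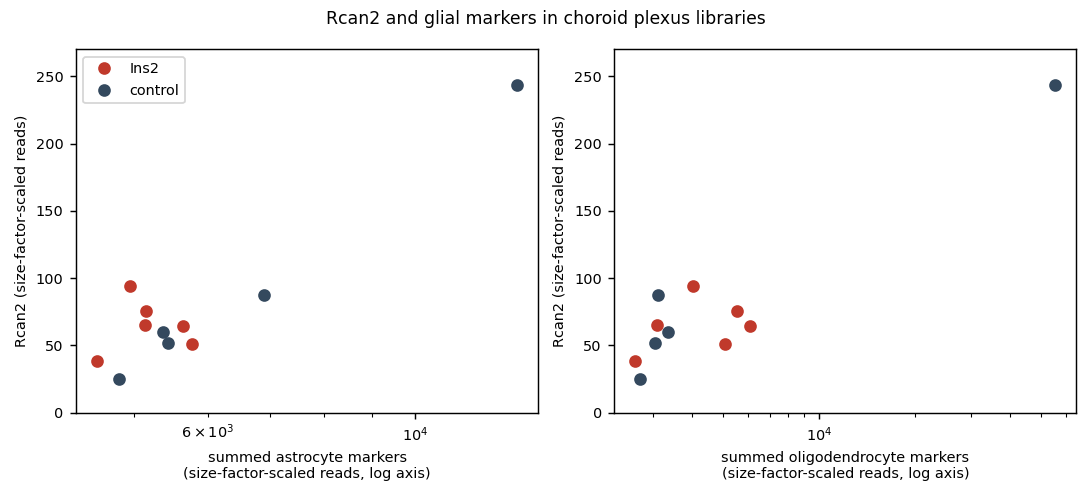
Rcan2 (size-factor-scaled reads) against the summed astrocyte and oligodendrocyte markers (horizontal log axes; vertical axis from 0) in the 6 Ins2 and 5 control choroid plexus libraries, 1 point a library. Control 2 lies alone at the upper right of both panels, with 244 scaled reads of Rcan2, 12876 of astrocyte markers and 55432 of oligodendrocyte markers.

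Counted over the choroid plexus contrast, 0 of the 10 genes passed limma's adjusted threshold of 0.05, where 2 of 14533 genes tested did (0.0138%). At an unadjusted p under 0.05 there was 1 of the 10 (Nfatc2), beside 6.21% of all genes. Ranges did not overlap for 1 of the 10, again Nfatc2, beside 0.626% of all genes (0.392% with Ins2 lower and 0.234% with Ins2 higher). As this contrast chose the family, nothing is read from these counts.

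The hypothalamus comparison did not enter the choice of genes. There 0 of the 10 genes, all of which were tested, passed limma's adjusted threshold, where 0 of 16363 genes tested did (0.0%). At an unadjusted p under 0.05 there was 1 of the 10 (Nfatc1), beside 9.92% of all genes. In the 10 genes the median log2 fold change was -0.006, beside 0.001 over all genes, and 3 of 10 were above 0, beside 50.3% of all genes. Ranges did not overlap for 0 of the 10, beside 1.5% of all genes (0.727% with Ins2 lower and 0.77% with Ins2 higher). EdgeR on recovered reads called 0 of the 10 and 0 of all genes. DESeq2 called 41 genes, but gave no adjusted p to 10469 of the 16363. It called none of the 6 members to which it gave an adjusted p, while Nfatc1, Nfatc2, Nfatc3 and Nfatc4 had none and could not be called. EdgeR had 1630 genes at an unadjusted p under 0.05, beside 1624 by limma.

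Nfatc2, the gene that led to the family, had 1388, 1565, 1355, 1407 and 1336 scaled reads in Ins2 hypothalamus replicates 1 to 5, against 1470, 1354, 1420, 1276 and 1365 in the controls. The groups overlapped throughout. The means were 1410 ± 90.8 in Ins2 and 1377 ± 73.1 in control hypothalamus (SD, n = 5 each). The fold was 1.02, with a 95% interval of 0.937 to 1.12 and a limma adjusted p of 0.881. The difference between the tissues was not tested, because it holds the contrast that chose the gene.

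Nfatc1 had the largest fold of the 10 genes in hypothalamus. It was at 434, 394, 314, 301 and 313 scaled reads in Ins2 replicates 1 to 5, against 242, 342, 265, 288 and 253 in the controls. All 5 Ins2 libraries lay above the control mean, but the groups overlapped, with control 2 above 3 of the Ins2 libraries. The means were 351 ± 59.3 in Ins2 and 278 ± 39.8 in control hypothalamus (SD). The fold was 1.26 with a 95% interval of 1.05 to 1.51, and limma's adjusted p of 0.398 did not pass (0.287 to 0.674 over the alternatives that gave one). The 2 highest Ins2 libraries carried much of it: the log2 fold change was 0.33 with all libraries, 0.25 without Ins2 replicate 1 and 0.29 without Ins2 replicate 2. Markers of vessels and stroma, where Nfatc1 is also known to be expressed, were high in Ins2 replicate 1. Its 10 endothelial markers summed to 8525, against 7193 to 7690 in the other Ins2 libraries and 7523 to 8454 in controls. Its 10 fibroblast markers summed to 6286, against 3862 to 5753 in the other Ins2 libraries and 3958 to 4801 in controls. Its 10 mural markers summed to 9544, against 9546 in control 2. Ins2 replicate 2, with the next highest Nfatc1, had 7596 of endothelial and 3950 of fibroblast markers. Ins2 replicate 5, with Nfatc1 at 313, had 5753 of fibroblast markers. The part of these cells in the Nfatc1 values was not tested.

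Nfatc4 had a log2 fold change of the opposite sign, -0.22, with an interval of -0.55 to 0.10. It had 130, 170, 106, 110 and 129 scaled reads in Ins2 hypothalamus, against 144, 162, 136, 147 and 156 in the controls. Of the 5 Ins2 libraries 4 lay below the control mean and replicate 2 lay above every control. The fold was 0.856, with a 95% interval of 0.683 to 1.07 and a limma adjusted p of 0.657, so the groups did not differ beyond their spread. Nfatc3 (fold 0.999, 95% interval 0.887 to 1.13) and Nfat5 (fold 0.971, 0.896 to 1.05) were nearly level, with limma adjusted p of 0.997 and 0.821.

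The calcineurin subunits of hypothalamus were measured tightly. Ppp3ca averaged 16410 ± 189 scaled reads in Ins2 and 16768 ± 1098 in control hypothalamus, with a fold of 0.98, an interval of 0.921 to 1.04 and a limma adjusted p of 0.852. All 5 Ins2 libraries fell below the control mean, yet within the range of the controls. The folds of Ppp3cb (0.998, 95% interval 0.937 to 1.06) and Ppp3r1 (1.002, 0.943 to 1.06) had intervals of similar width, with limma adjusted p of 0.986 and 0.989.  Rcan1 averaged 2191 ± 157 in Ins2 and 2267 ± 76.6 in controls (fold 0.965, limma adjusted p = 0.776, interval 0.891 to 1.04). Rcan2 averaged 11426 ± 241 in Ins2 and 11502 ± 588 in controls (fold 0.994, limma adjusted p = 0.963, interval 0.937 to 1.06).

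**Figure D3:**
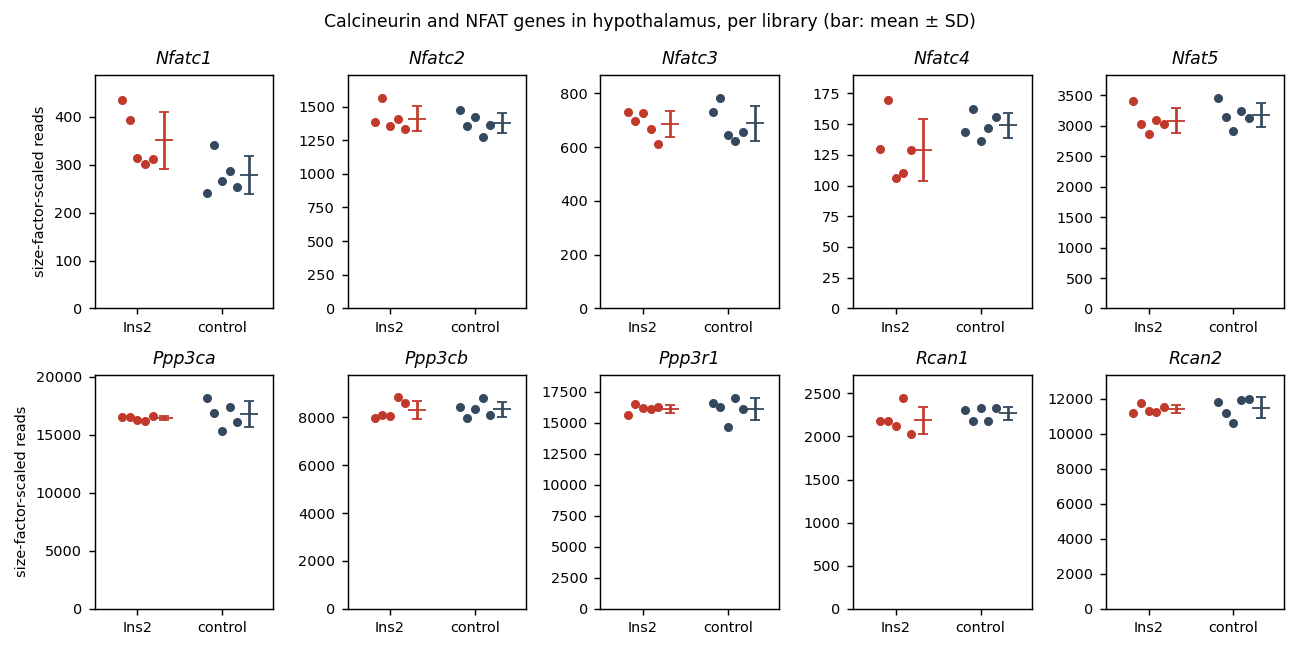
Size-factor-scaled reads of the 10 genes in each hypothalamus library (points; vertical axis from 0; Ins2 left of control, n = 5 each), with the mean ± SD beside the points. The groups overlap for every gene; Nfatc1 shows the largest offset, with means of 351 in Ins2 and 278 in controls.

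**Figure D4:**
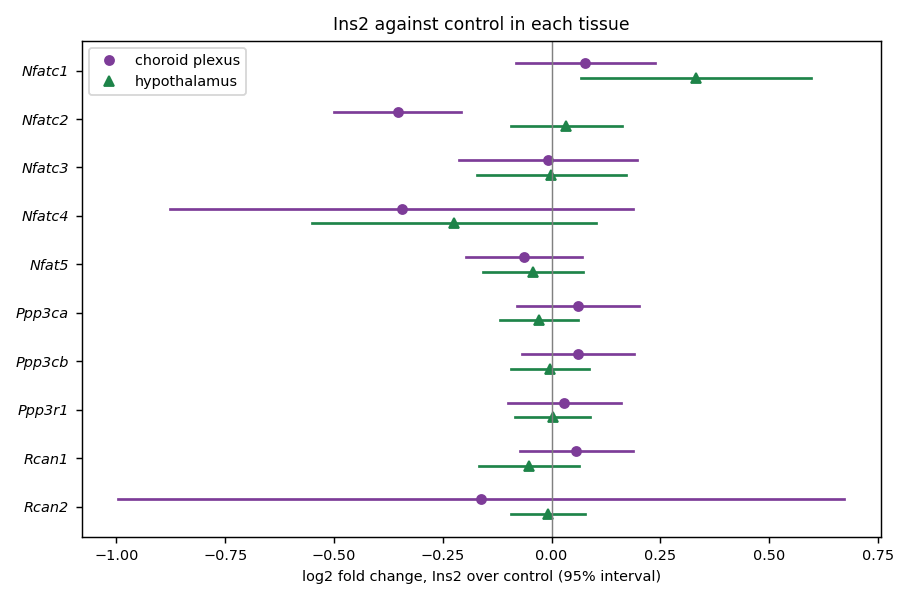
Log2 fold change, Ins2 over control, of each gene in choroid plexus (circles) and hypothalamus (triangles) with 95% intervals from limma. Nfatc2 lies at -0.35 in choroid plexus and 0.03 in hypothalamus, and the widest interval is that of Rcan2 in choroid plexus, -0.997 to 0.67.

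The balance between paralogs was then measured within each library as reads per kilobase of merged exons (GENCODE M21), each gene as a share of its family. Such a share does not depend on the scaling, so it can be set side by side for the tissues, although no test was made between them. It does depend on the rest of its family: a lower share of any gene raises the shares of the others. Families were completed with Ppp3cc, the gamma catalytic subunit, and Rcan3, the remaining RCAN paralog, which are not among the 10 genes.

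In the NFAT family Nfat5 and Nfatc2 led in both tissues. Over the 11 choroid plexus libraries Nfat5 took 28.5% to 33.9% and Nfatc2 26.1% to 36.5% of the family's reads per kilobase. Over the 10 hypothalamus libraries Nfat5 took 36.3% to 42.6% and Nfatc2 28.6% to 33.0%. Nfatc1 did not overlap between the tissues, with 15.6% to 20.02% in choroid plexus and 7.24% to 12.7% in hypothalamus. Nfatc4 was the smallest in both, at 1.05% to 3.34% in choroid plexus and 4.51% to 6.44% in hypothalamus. Within choroid plexus, where the values of Nfatc2 chose the family, Nfatc2 averaged 29.1% ± 2.08 in Ins2 and 34.1% ± 2.07 in control libraries, and Nfat5 averaged 32.2% ± 1.64 in Ins2 and 30.9% ± 1.97 in control libraries. Nfatc1 averaged 18.9% ± 1.02 in Ins2 and 16.4% ± 0.921 in controls. Unlike the scaled values, the Nfatc2 shares of the groups touched, at 26.1% to 31.4% in Ins2 and 31.2% to 36.5% in controls.

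The catalytic subunits also differed between the tissues. In choroid plexus Ppp3cb led with 37.7% to 44.4%, Ppp3ca took 29.3% to 36.7% and Ppp3cc 24.3% to 31.9%, and every share of Ppp3cb lay above every share of the others. In hypothalamus Ppp3ca took 57.1% to 61.6%, Ppp3cb 32.4% to 35.8% and Ppp3cc 5.05% to 7.61%. Every choroid plexus library thus had a higher share of Ppp3cc and a lower share of Ppp3ca than every hypothalamus library. Control 2, with its brain markers, had 33.1% of Ppp3ca, within the range of the other choroid plexus libraries. Of the Ppp3cc exon bases 3.05% overlap an opposite-strand gene.

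The RCAN genes switched places. Rcan1 took 56.0% to 66.6% of the family's reads per kilobase in choroid plexus and 15.4% to 18.7% in hypothalamus. Rcan2 took 1.09% to 10.3% in choroid plexus and 59.9% to 65.0% in hypothalamus. The highest Rcan2 share in choroid plexus, 10.3%, was that of control 2, and the other 10 libraries ran up to 3.90% or less. Rcan3 took 31.7% to 39.4% in choroid plexus and 18.1% to 22.8% in hypothalamus.

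**Figure D5:**
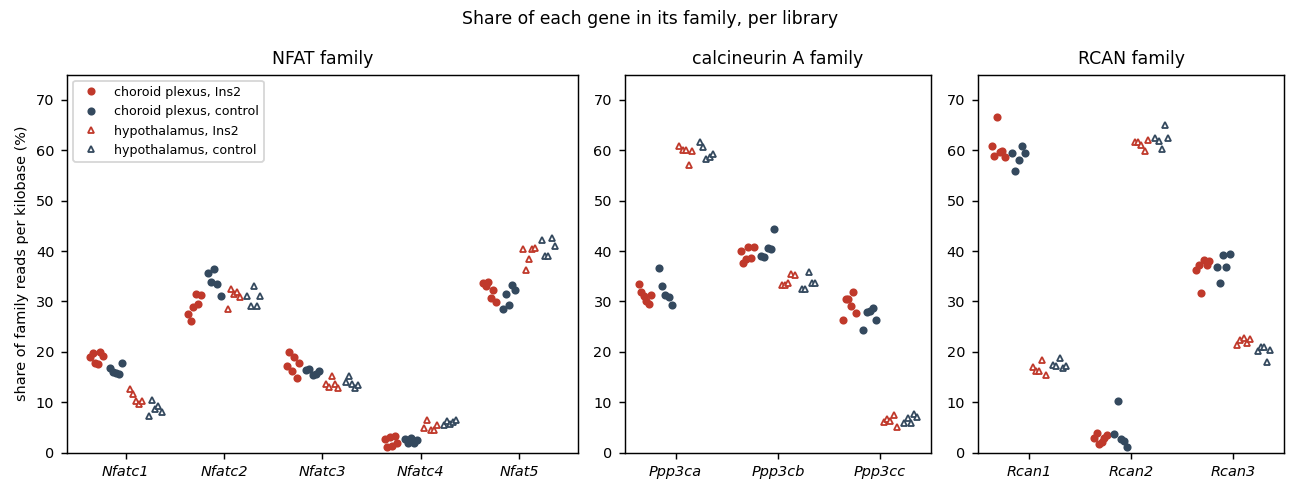
Share of each gene in its family's reads per kilobase (%, vertical axis) in every library, for the NFAT, calcineurin A and RCAN families; filled circles are choroid plexus (6 Ins2, 5 control) and open triangles hypothalamus (5 each). Rcan1 leads in choroid plexus (56.0% to 66.6%) and Rcan2 in hypothalamus (59.9% to 65.0%), and Ppp3cc takes 24.3% to 31.9% in choroid plexus and 5.05% to 7.61% in hypothalamus.

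Levels per length put these shares on 1 scale, RPKM, which divides reads by exon length and by the library's total. In choroid plexus Ppp3r1 stood first at 38.6 ± 3.11 (SD, 11 libraries), above Rcan1 at 10.6 ± 0.516 and Ppp3cb at 7.52 ± 0.541 RPKM. The ranges of these 3 genes did not overlap one another. Nfat5 (6.43 ± 0.438), Nfatc2 (6.41 ± 0.938) and Ppp3ca (5.96 ± 0.469) followed with ranges that overlapped their neighbours. Below them came Nfatc1 (3.61 ± 0.298) and Nfatc3 (3.44 ± 0.439), which overlapped, and at the bottom Rcan2 (0.60 ± 0.444) and Nfatc4 (0.470 ± 0.137). Without control 2 these were at 0.474 ± 0.164 and 0.476 ± 0.143 (10 libraries), so they have no order.

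In hypothalamus the order was Ppp3r1 (141 ± 5.61, 10 libraries), Rcan2 (74.1 ± 2.75), Ppp3ca (46.96 ± 2.31) and Ppp3cb (26.7 ± 1.14), whose ranges did not overlap one another. Rcan1 followed at 20.4 ± 1.12, also apart from Ppp3cb, and the NFAT genes lay lower, from Nfat5 (4.82 ± 0.312) through Nfatc2 (3.72 ± 0.203), Nfatc3 (1.66 ± 0.131) and Nfatc1 (1.19 ± 0.229) to Nfatc4 (0.676 ± 0.103). Only the ranges of Nfatc3 and Nfatc1 overlapped among these NFAT genes. The tables were scaled separately and Ttr alone took 10.7% to 12.98% of choroid plexus reads, so levels between tissues are set side by side and not tested. On this scale Ppp3ca, Ppp3cb, Ppp3r1, Rcan1 and Rcan2 were higher in every hypothalamus library than in any choroid plexus library. Nfatc1, Nfatc2, Nfatc3 and Nfat5 were higher in every choroid plexus library than in any hypothalamus library. For Nfat5 the lowest choroid plexus value was 5.75 RPKM and the highest hypothalamus value 5.35. Ppp3cc overlapped, at 4.28 to 6.40 RPKM in choroid plexus and 3.97 to 6.43 in hypothalamus. The testis-type B subunit gene Ppp3r2 had at most 1 read in any choroid plexus library and 4 to 17 in hypothalamus.

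Shares were tested between the groups in hypothalamus, 11 shares in all, by an exact two-sided permutation test over 252 splits, whose smallest possible p is 0.00794. The share of Rcan3 was 22.2% ± 0.565 in Ins2 and 20.1% ± 1.20 in control hypothalamus (SD, n = 5 each). The groups did not overlap, at 21.5% to 22.8% in Ins2 and 18.1% to 20.99% in controls. The exact p was the smallest possible, 0.00794, and the adjusted p was 0.0873. Over 11 shares that smallest p cannot pass after adjustment unless other shares also have small p. The adjusted test therefore could not call Rcan3 alone, and nothing is read from its result. The share of Nfatc1 was 10.9% ± 1.21 in Ins2 and 8.77% ± 1.20 in controls (exact p = 0.0317, adjusted p = 0.175). The share of Nfatc4 was 5.16% ± 0.803 in Ins2 and 6.04% ± 0.380 in controls (exact p = 0.0556, adjusted p = 0.204). The other 8 shares had exact p from 0.198 to 0.889. Without Ins2 replicate 2 the shares of Rcan3 (difference 1.99 percentage points) and Nfatc4 (-1.20) passed, with an adjusted exact permutation p of 0.0437 each. Of the 10 runs that left out 1 library, each share passed in only 1. Over those runs the adjusted exact permutation p reached 0.218 for Rcan3 and 0.437 for Nfatc4.

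Other genes of the pathway were taken from 6 lists of 72 genes: calcineurin partners, kinases and exporters that return NFAT to the cytoplasm, calcium entry and release, other calcineurin substrates, NFAT5 targets of tonicity, and NFAT targets of immune cells. In hypothalamus 61 were tested and 0 passed limma's adjusted threshold. At an unadjusted p under 0.05 there were 7, or 11.5%, beside 9.92% of all genes tested. The median log2 fold change was 0.04, beside 0.001 over all genes, with 43 of 61 (70.5%) above 0, beside 50.3% of all genes. EdgeR called 0 of the 61. DESeq2 called 1, Pacsin1, and gave 24 of the 61 no adjusted p, so these could not be called.

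The 7 genes were named after their values were seen, and all were higher in Ins2 hypothalamus. Pacsin1, a membrane-shaping protein of endocytosis dephosphorylated by calcineurin, averaged 15119 ± 919 scaled reads in Ins2 and 12649 ± 1591 in control hypothalamus (fold 1.20, 95% interval 1.09 to 1.32; limma adjusted p = 0.309). Rcan3 averaged 4835 ± 171 in Ins2 and 4335 ± 277 in controls (fold 1.12, 1.04 to 1.20; adjusted p = 0.340). Its values were 4564, 4983, 4943, 4774 and 4913 in Ins2 replicates, against 4472, 4431, 4322, 3869 and 4582 in controls, so the groups met at 1 library each. Gsk3a, a kinase that rephosphorylates NFAT, stood at a fold of 1.11, the calcium sensor gene Stim1 at 1.079, the calcium channel gene Cacna1c at 1.104, and the transcription factor gene Mef2d and the coactivator gene Crtc1, whose proteins are calcineurin substrates, at 1.11 and 1.09 (limma adjusted p from 0.350 to 0.430).

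By list in hypothalamus, calcineurin partners had a median log2 fold change of -0.04 (11 tested), with the abundant calmodulin gene Calm3 at a fold of 1.05. Export kinases had a median of 0.05 (12 tested), with Csnk1a1 at 1.01 and Gsk3b at 0.99. Calcium entry and release genes had 0.04 (15 tested), with Stim1 and Plcb4, a phospholipase gene (1.0003), the most abundant. Other substrates had 0.08 (11 tested), with the dynamin gene Dnm1 at 1.07 and Pacsin1 at 1.20. The 8 tested NFAT5 target genes were all above 0, beside 50.3% of all genes, with a median of 0.11. They were led in level by the osmolyte transporter gene Slc6a6 (fold 1.03) and the amino acid transporter gene Slc38a2 (1.07). None of the 8 had an unadjusted p under 0.05, and Akr1b3, the aldose reductase gene, was listed at 0 in every library of both tissues. Of the 12 immune targets 4 were tested, with a median of -0.08, Egr3 at 0.939 and Ptgs2 at 0.862.

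In choroid plexus 57 of the 72 genes were tested, with a median log2 fold change of -0.04, beside -0.005 over all genes, and 0 passed. Calcium entry and release genes had the lowest median, -0.12, with 2 of 14 above 0, beside 48.4% of all genes, and 4 of 14 (28.6%) at an unadjusted p under 0.05, beside 6.21%. The most abundant of them, Itpr1, the calcium release channel of the endoplasmic reticulum, averaged 39027 ± 2994 scaled reads in Ins2 and 43775 ± 2761 in control choroid plexus, a fold of 0.891 (95% interval 0.815 to 0.973). Stim2, a calcium sensor of that compartment, stood at 1.004. Ranges did not overlap for 3 of the 57 genes, all lower in Ins2 and named after their values were seen. Of all genes tested 0.626% did not overlap in either direction, and 0.392% with Ins2 lower. Stim1, a paralog of Stim2, was at 6299 to 6921 in Ins2 and 7021 to 7338 in control choroid plexus (fold 0.937). Orai2, a gene of the calcium release-activated channel, was at 2408 to 2608 in Ins2 and 2618 to 2781 in controls (fold 0.926). Dyrk2, one of the kinases that phosphorylate NFAT, was at 761 to 859 in Ins2 and 900 to 959 in controls (fold 0.872). Export kinases had a median of -0.07 (12 tested), with Csnk1a1 at a fold of 0.992 and Lrrk2 at 0.921. Calcineurin partners had 0.02 (11 tested), with the cyclophilin gene Ppia at 1.02, and other substrates -0.02 (12 tested), with Ppp1r1b at 1.01 and Mef2d at 1.02. NFAT5 targets had a median near 0 (6 tested), with the inositol transporter gene Slc5a3 at 0.944 and Slc38a2 at 0.914. Of the immune targets 2 were tested, Ptgs2 at 1.02 and Il2ra at 1.94 (95% interval 0.799 to 4.71). As this contrast chose the family, these values and counts are descriptions, and nothing is read from them.

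The genes most like Nfatc2 were found from log2 values with each group's mean subtracted, among genes with a mean of at least 50. In choroid plexus (11 libraries, 12169 genes) they were Fmo5 (Pearson r = 0.91), Exoc4 (0.90), Acsl4 (0.88), Otud7b (0.87) and Cnot8 (0.85). In hypothalamus (10 libraries, 14247 genes) they were 1700003E16Rik (0.92), Cyp46a1 (0.92), Abhd14b (0.90), Zfyve26 (0.89) and Ddx21 (0.88). No gene was in both sets. With so few libraries such maxima over so many genes are high for any gene, and the libraries share their preparation.

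For the other genes the nearest in hypothalamus were Aqp4 for Nfatc1 (r = 0.94), Aqr for Nfatc3 (0.95), Haus3 for Nfatc4 (0.92), Scn9a for Nfat5 (0.95), Serinc1 for Ppp3ca (0.98), Svbp for Ppp3cb (0.95), Map7d2 for Ppp3r1 (0.99), Arrdc1 for Rcan1 (0.95) and Tm4sf5 for Rcan2 (0.93). Aqp4 encodes the water channel of astrocyte endfeet. The 10 astrocyte markers, Aqp4 among them, summed to 145577 to 151702 in Ins2 and 136986 to 149967 in control hypothalamus. Their highest sum was in Ins2 replicate 4, whose Nfatc1 was the lowest of the Ins2 libraries, at 301. Their lowest sum was in control 1, which had the lowest Nfatc1, at 242. The part of astrocytes in the Nfatc1 values was not tested. In choroid plexus they were Txlng for Nfatc1 (0.94), Tpr for Nfatc3 (0.97), Ssr4 for Nfatc4 (0.94), Srrm2 for Nfat5 (0.96), Oxa1l for Ppp3ca (0.92), Gtf3c4 for Ppp3cb (0.96), Larp1b for Ppp3r1 (0.96), Haus4 for Rcan1 (0.90) and Litaf for Rcan2 (0.93). Within the family, Ppp3r1 ran with Rcan2 (0.86) and with Ppp3ca (0.78) over the hypothalamus libraries, where 1% of all genes exceeded 0.81 with Ppp3r1. Over the choroid plexus libraries it ran with Ppp3cb (0.65), where 1% of all genes exceeded 0.84.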

How the data were processed

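Per the submitters' processing notes, the authors used HISAT2, featureCounts, DESeq2 and mouse GRCm38 (mm10). Versions and the strand setting: not given in the sources used here. PicoPure-isolated RNA was made into poly(A), strand-marked libraries, per the labels' protocols. The deposited signal values, 1 normalized table per tissue, are gene counts divided by 1 factor per library, read here as the DESeq2 size factor. Dividing each library by its lowest positive value gave whole reads, within 0.02, for 100% of values. Choroid plexus control 4, whose step lay close to 1, was left out of count tests. The floor for a gene with no read is 3 reads, which is 0.0483 to 0.116 RPM (counting error only).

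The members and lists were chosen with earlier results of these data known. Named were the 10 genes, the 2 most abundant genes per list (1 gene of these is not reported here), genes past the threshold, and the genes nearest in pattern. Limma 3.58.1 (R 4.3.3, lmFit and eBayes with trend) was fitted within each tissue to log2(value + 1) of genes with a mean of at least 10, with two-sided p-values adjusted by Benjamini-Hochberg over all genes (threshold 0.05). Fold changes are on that scale and understate those of low genes. The fit was tested on simulated data. Alternatives were pseudocounts of 0.5 and 5, no filter or a mean of at least 50, equal totals, array weights, edgeR 4.0.16, DESeq2 1.42.0, a replicate block and leaving out each library. Exon lengths and positions came from GENCODE M21 (GRCm38). No pair of libraries within a group was alike enough to be 1 library (lowest chi-square per gene 5.55).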

Additional observations from a re-analysis of the deposited data

Results flagged for a closer look

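Of 40 sets of libraries (10 genes in 4 groups), 2 held a library far from the rest of its group by Dixon's test, where chance gives about 1 in 20. Nfatc1 in Ins2 choroid plexus replicate 2 was at 977 scaled reads, against 761 to 840 in the other Ins2 libraries. Its log2 fold change in choroid plexus was 0.08 with that library and 0.03 without it. Rcan2 in choroid plexus control 2 was at 244 scaled reads, against 24.8 to 87.5 in the other controls. In that library the oligodendrocyte markers summed to 55432, against at most 6080 in Ins2 libraries and 3344 in the other controls.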

How the results depend on the processing

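The log2 fold change of Nfatc2 in choroid plexus lay between -0.40 and -0.33 under the 9 other settings and between -0.40 and -0.31 when each library was left out. In hypothalamus 0 of the 10 genes passed under any of the 19 alternatives, but DESeq2 gave an adjusted p to 6 of them. In choroid plexus, the contrast that chose the family, 0 passed except under array weights, which called 1, Nfatc2, and DESeq2 gave none of the 10 an adjusted p. The count of all genes called in choroid plexus, 2, was 1 with a mean of at least 50, 6 with array weights, 0 with edgeR and 14 with DESeq2 (both on 10 libraries, chosen after seeing the data), and 1 to 4 when each library was left out. In hypothalamus the count, 0, was 41 with DESeq2, 57 with the replicate block and 0 to 18 when each library was left out (18 without control 6, 1 without control 4). DESeq2 gave no adjusted p to 13249 of 14539 genes in choroid plexus and 10469 of 16363 in hypothalamus, so these could not be called.

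The replicate numbers in the sample titles did not pair the samples. Same-numbered libraries had correlations of their deviations from -0.0699 to 0.00886 in hypothalamus (4 pairs, 0 of them closest to their own number). In choroid plexus these ran from -0.148 to 0.14 (5 pairs, 1 closest to its own number). In hypothalamus some sample codes carry another number than the title, and pairing by code was not tested. With the replicate block the log2 fold change of Nfatc2 was -0.38 in choroid plexus and 0.05 in hypothalamus, and Pacsin1 passed in hypothalamus, as it did with DESeq2 and without control 6.

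In hypothalamus, log2 fold changes turned for Nfatc3 (0.0249, replicate block), Ppp3cb (0.00802, array weights), Ppp3r1 (-0.0114, equal totals) and Rcan2 (0.0035 with array weights and 0.00312 with the replicate block). Shares turned for Nfatc3 (0.0139 points without division by length, 0.00781 with the block) and Ppp3cc (0.00851 with the block). With each library left out, log2 fold changes ran from -0.00408 to 0.058 for Nfatc2, -0.0346 to 0.0467 for Nfatc3, -0.0605 to 0.00105 for Ppp3ca, -0.0258 to 0.0171 for Ppp3cb, -0.0321 to 0.0223 for Ppp3r1 and -0.0369 to 0.00712 for Rcan2. Shares ran from -0.533 to 0.211 points for Nfatc3 and -0.505 to 0.467 for Ppp3ca. In choroid plexus, leaving out each library gave -0.09 to 0.07 for Nfatc3 and -0.53 to 0.28 for Rcan2. The cause was not tested. Count tests on all 11 choroid plexus libraries were not run. Low counts limit Nfatc4 and, in choroid plexus, Rcan2.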
